A study of Ovis aries with 3 samples.

Results

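Cells that carried *SHH* transcripts in whole sheep embryos were examined, and they numbered 152 of 31576 kept cells over 3 single-cell RNA libraries. A cell was chosen when at least 1 unique molecular identifier (UMI, 1 counted transcript molecule) of *SHH* was measured in it and fewer than 5 UMIs of *AHSP*, an erythroid gene. The members were thus selected on their own *SHH* count, and that count is a description here. Those with *SOX2*, with *EPCAM*, and with *T*, *NOTO* or *CHRD* are described apart. The libraries were E19 HSTS, E19 HS, then E16 HS, 1 for each group, from embryos at day 19 or day 16, and values of 3 libraries are given in this order. HSTS are Hulunbuir short-tailed sheep, whose *T* gene carries a missense mutation in the part that binds DNA, and HS are Hu sheep with the wild-type *T* gene. The labels and the study name no other allele. In the study, ewes of both breeds were synchronized with progesterone sponges, injected with pregnant mare serum gonadotropin and artificially inseminated. No treatment that differed between the groups is named. Breed and *T* genotype cannot be told apart in the E19 comparison. Whole embryos were dissociated with collagenase and red cells were lysed, and the E16 HS label names 1 embryo while the study describes 3 for this group, so pooling could not be settled.

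*SHH* encodes Sonic hedgehog, a secreted signal that patterns the neural tube, the somites, the limb and the gut. In the vertebrate midline it is made first by the notochord, a rod of mesoderm under the neural tube, and then by the floor plate, the ventral midline of the neural tube itself. Gut endoderm is another source. *FOXA2* is a transcription factor of all these tissues, *SPON1* encodes the secreted floor plate protein spondin 1, and *CHRD* encodes the BMP antagonist chordin of early midline mesoderm.

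These markers did not cover the members evenly. *SPON1* was detected in 67 of the 152 cells, *FOXA2* in 17 and *CHRD* in 2. *SOX2*, a factor of neural progenitors, was detected in 93, *EPCAM*, an epithelial adhesion molecule, in 61, and *T*, the notochord and tail bud factor brachyury, in 22. *SOX17*, a defining factor of definitive endoderm, and *NKX2-2*, a factor of the floor plate border, were at 0 in every member, but at most 0.0485 and 0.0277 UMIs of them were expected in a library from the other cells, so these counts of 0 say little. At least 1 of *SOX2*, *EPCAM*, *T*, *NOTO* and *CHRD* was found in 137 members, or 90.1%, and the other 15 had none. The sets overlapped, with *EPCAM* in 14 of the 22 cells with *T*, *NOTO* or *CHRD* and *SOX2* in 5 of them. In E16 HS the floor plate marker *SPON1* was detected in 1 of 31 members.

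By library, 63, 58 and 31 of the kept cells were *SHH* cells. The share was 0.655% (exact binomial 95% interval 0.504 to 0.837%) of 9618 cells in E19 HSTS. In E19 HS it was 0.546% (0.415 to 0.705%) of 10629, and in E16 HS 0.274% (0.186 to 0.388%) of 11329. The intervals of the 2 E19 libraries overlapped, and both lay above that of E16 HS. Of the kept cells, 2499, 1401 and 1993 were over the *AHSP* limit and could not be members. Among the rest the shares were 0.885% (0.681 to 1.13%), 0.629% (0.478 to 0.812%) and 0.332% (0.226 to 0.471%). There the interval of E19 HS lay only just above that of E16 HS. Each group is 1 library, so no test between groups was possible, cells are not replicates, and all intervals in the text cover counting error only. Thinning every cell to 3000 UMIs, which drops 1106, 1345 and 1317 cells of lower depth, gave shares of 0.352%, 0.345% and 0.110%, with 30, 32 and 11 cells. Thinned, the interval of E16 HS (0.0549 to 0.196%) still lay below those of E19 HSTS (0.238 to 0.503%) and E19 HS (0.236 to 0.486%). Per 1000000 UMIs (CPM) of all cells under the *AHSP* limit, *SHH* was at 1.45, 1.12 and 0.449.

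Erythroid cells, which should lack *SHH*, give the level of free RNA. With at least 5 *AHSP* UMIs, 1 of 2499 cells in E19 HSTS had an *SHH* UMI (0.0400%), 0 of 1401 in E19 HS (exact upper limit 0.263%) and 0 of 1993 in E16 HS (0.185%). The median depth was 17925, 17742 and 14233 UMIs in these cells, against 8038, 6917 and 9210.0 in the *SHH* cells and 7190.5, 6334 and 8054 in the other cells. In all 3 libraries the shares of *SHH* cells lay above these levels, and for E16 HS the lower bound, 0.186%, was next to the limit of 0.185%. A member most often had a single *SHH* UMI, which was so for 49, 47 and 26 cells. Just inside the limit, at 1 UMI, *SPON1* was detected in 51.0% of cells in E19 HSTS and 55.3% in E19 HS. At 2 or more UMIs it was detected in 71.4% of 14 and 45.5% of 11 cells, and just outside, at 0 UMIs, in 6.48% and 6.0%. The members had at most 1, 1 and 2 *AHSP* UMIs, and 57, 57 and 22 of them had none. Members of different libraries shared no barcode, and 33, 31 and 37 barcodes were shared by kept cells of the library pairs. No doublet was removed. Scrublet marked 2.01%, 0% and 1.75% of kept cells, and so did not work in E19 HS. In the highest 8% of scores lay 10 of 63, 4 of 58 and 11 of 31 members. Without cells in that range the share in E16 HS was 0.192% (0.117 to 0.296%), with a lower bound under the erythroid limit of 0.185%.

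**Figure D1:**
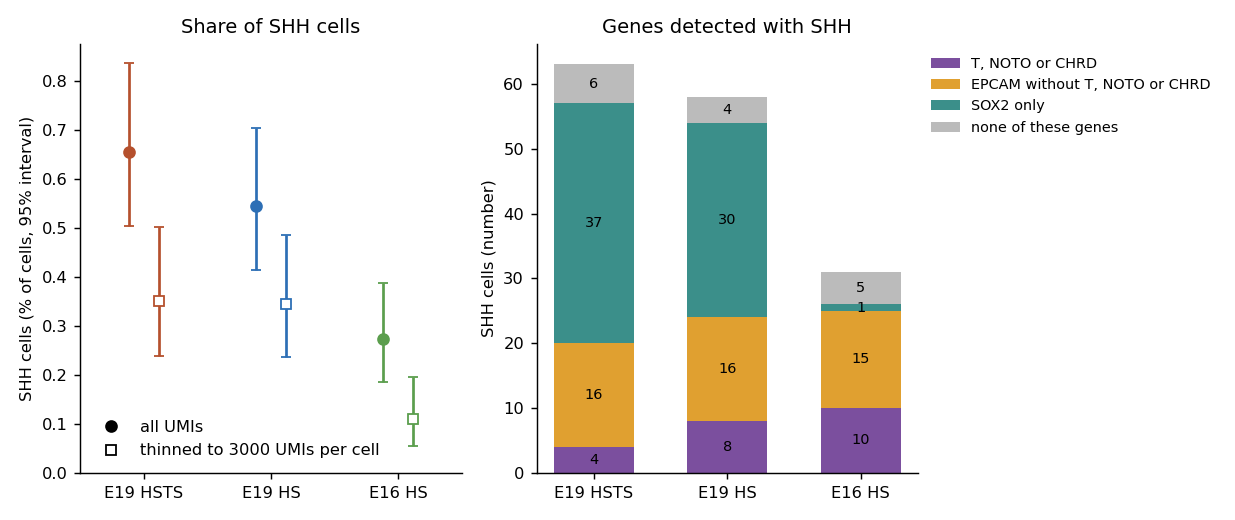
Left, *SHH* cells as a percentage of kept cells in each library, with exact 95% intervals, before (filled) and after (open) thinning each cell to 3000 UMIs. Right, the number of *SHH* cells by the other genes detected, where the 37 and 30 cells with *SOX2* only are the largest set in E19 HSTS and E19 HS and 1 such cell was found in E16 HS.

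The make-up of the *SHH* cells differed most between the stages. *SOX2* was found in 46 of 63 members in E19 HSTS (73.0%, 60.3 to 83.4%) and 37 of 58 in E19 HS (63.8%, 50.1 to 76.0%). In E16 HS it was found in 10 of 31 (32.3%, 16.7 to 51.4%). For *EPCAM* the order was the other way, with 20 (31.7%), 19 (32.8%) and 22 cells (71.0%, 52.0 to 85.8%). *T*, *NOTO* or *CHRD* was found in 4 (6.35%, 1.76 to 15.5%), 8 (13.8%, 6.15 to 25.4%) and 10 cells (32.3%, 16.7 to 51.4%). The other cells under the *AHSP* limit had *SOX2* in 28.4%, 31.8% and 16.7%, *EPCAM* in 14.2%, 15.0% and 24.3%, and *T*, *NOTO* or *CHRD* in 0.0567%, 0.305% and 1.75%. After thinning, the shares among members were 66.1%, 53.4% and 10.0% for *SOX2*, and 13.6%, 22.4% and 43.3% for *EPCAM*. For *T*, *NOTO* or *CHRD* they were 3.39%, 12.1% and 16.7%, and the order of the libraries was kept for all of these. The thinned other cells had *SOX2* in 23.1%, 25.3% and 11.6%, *EPCAM* in 9.10%, 9.10% and 14.3%, and *T*, *NOTO* or *CHRD* in 0.0336%, 0.128% and 0.711%. At equal depth *SOX2* was left in 3 of 30 *SHH* cells of E16 HS (2.11 to 26.5%). These are too few to tell a higher share from that of the other cells there. Between the 2 E19 libraries the intervals of each share overlapped. Erythroid cells had *SOX2* in 3.72%, 3.57% and 2.66% and *EPCAM* in 2.12%, 1.78% and 4.32%.

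Some cells belonged to more than 1 set. *SOX2* with none of the others marked 37, 30 and 1 members, and *SOX2* and *EPCAM* together marked 9, 7 and 8. *EPCAM* without *T*, *NOTO* or *CHRD* marked 16, 16 and 15 members. The sets with *SOX2* only were shallower, at a median of 5697 and 6590.5 UMIs in E19 HSTS and E19 HS, than those with *EPCAM* but not *T*, *NOTO* or *CHRD*, at 11694, 7108 and 13499.

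Summed over all members, few genes separated the *SHH* cells from the other cells in every library. The ratio of CPM was taken between *SHH* cells and kept cells under the *AHSP* limit without *SHH*. Of 2840 genes with at least 10 UMIs in the *SHH* cells of each library, 24 were at least 2-fold higher in all 3, or 0.845%. Of 2906 genes with at least 10 UMIs expected there, 24 were at least 2-fold lower in all 3, or 0.826%. Since all members were chosen on 1 gene, these counts describe the chosen cells and carry no test. Of the 24 higher genes, 16 were still 2-fold higher in all 3 libraries when the member with the most UMIs of a gene was left out in each. The median ratio over genes with at least 10 UMIs was 1.14, 1.06 and 1.02 by library.

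*SAMD3*, which encodes a protein with a sterile alpha motif, had the largest ratios among the 24 higher genes. It was found in 5, 10 and 10 members, with 10, 17 and 19 UMIs. Its CPM was 159-fold (95% interval 52.3 to 531), 112-fold (55.6 to 220.1) and 88.3-fold (49.3 to 152) that of other cells. The gene was rare elsewhere, so that 5 of 9, 10 of 20 and 10 of 37 cells with *SAMD3* were *SHH* cells, and 1, 0 and 0 erythroid cells had it. *ALCAM*, a cell adhesion molecule of axons and notochord, followed at 9.17-fold, 10.2-fold and 8.84-fold. *SLIT2*, a secreted repellent of commissural axons, was at 9.49-fold, 8.49-fold and 5.2-fold. *SOX9*, a factor of chondrogenic and midline cells, was at 2.5-fold and 2.78-fold in E19 HSTS and E19 HS and 8.0-fold in E16 HS. Of its 95 UMIs in E19 HSTS, 30 came from 1 cell, so the ratio there rests in part on that cell.

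Other genes among the 15 whose lowest ratio over the libraries was largest were *NFE2L3*, *CRISPLD1*, *SPP1*, *FAM174B*, *NEDD9*, *DST*, *BMP7*, *COL11A1*, *SAT2* and *CCPG1*. *BMP7*, a secreted BMP ligand, was at 2.24-fold, 3.08-fold and 2.85-fold, and *COL11A1*, a fibrillar collagen of cartilage and notochord sheath, at 2.45-fold, 4.08-fold and 2.23-fold. At the other end, *CXCL14*, a chemokine, had 0 UMIs in all 152 members, where 41.0, 17.4 and 15.3 were expected from the other cells. *CRABP1*, which binds retinoic acid, had 28, 21 and 57 UMIs at ratios of 0.0564, 0.0489 and 0.227. *ACTA2*, *TPM2* and *NEXN*, genes of contractile filaments, were between 0.0490 and 0.227 times the other cells in the 3 libraries.

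**Figure D2:**
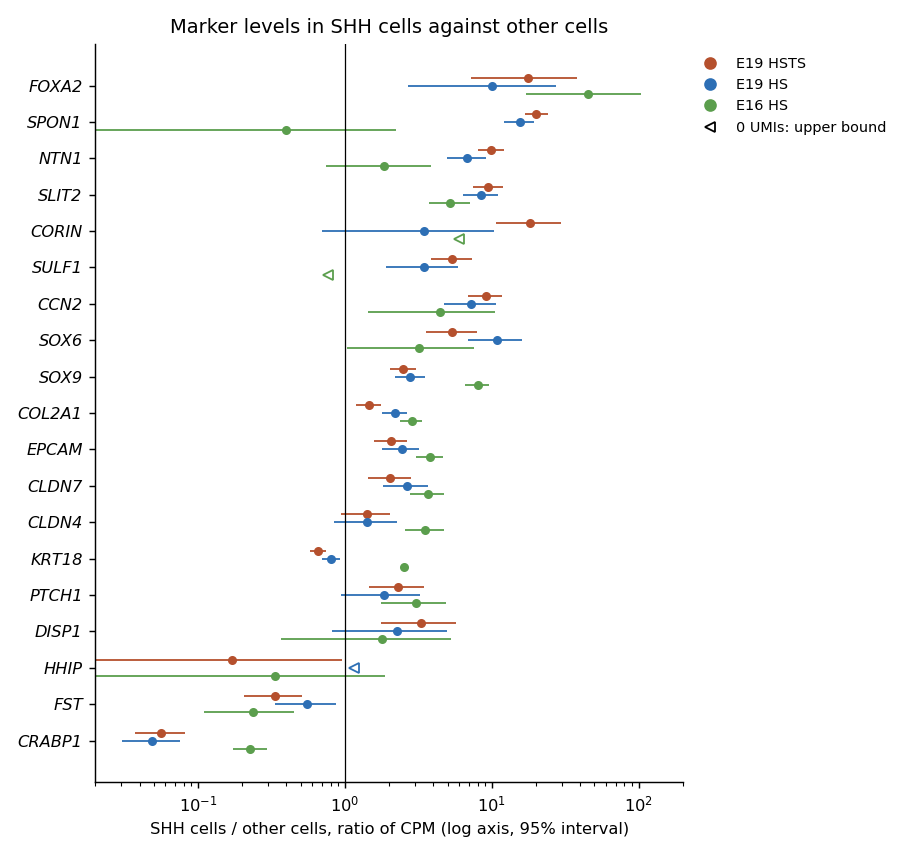
Ratio of CPM in *SHH* cells to that in other cells for marker genes, on a log axis with exact 95% intervals and 1 colour for each library. Open arrowheads give the upper bound for genes with 0 UMIs in the *SHH* cells and lines end at the edges of the axis. *SPON1* lies at 20.1 and 15.5 in E19 HSTS and E19 HS and at 0.400 in E16 HS.

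Genes of the floor plate were higher in the *SHH* cells of the E19 libraries than in other cells. Of the 15 floor plate genes on the list, 13, 11 and 4 were at least 2-fold higher by library. Over all genes with a UMI in either set of cells, 12.3%, 11.7% and 10.2% were. The median ratio of the list was 9.88, 3.82 and 0.200, beside 0.771, 0.595 and 0.118 over all such genes. *FOXA2* and *SPON1* stand on more than 1 list, so the lists are not independent.

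*SPON1* had 146 UMIs in 35 of 63 members of E19 HSTS, 81 in 31 of 58 of E19 HS and 1 in 1 of 31 of E16 HS. It was thus found in 55.6% and 53.4% of the E19 members against 6.48% and 6.0% of other cells, and in 3.23% against 5.16% in E16 HS. After thinning these shares were 42.4% and 43.1% against 3.52% and 3.46%, and 3.33% against 2.20%. The ratio of CPM was 20.1 (16.7 to 24.1) and 15.5 (12.2 to 19.5) at E19 and 0.400 (0.0101 to 2.24) at E16. Other cells without *SHH* also held *SPON1*: only 7.11% and 5.34% of all *SPON1*-positive cells under the *AHSP* limit were *SHH* cells at E19.

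*NTN1*, which encodes the axon attractant netrin 1, had 105 UMIs in 35 cells, 47 in 21 and 7 in 6. Its ratios were 9.88 (8.0 to 12.1), 6.76 (4.93 to 9.06) and 1.85 (0.741 to 3.83). *CORIN*, a membrane protease of the floor plate, had 20 UMIs in 12 cells, 3 in 3 and 0. In E16 HS the other cells gave an expectation of 0.625 *CORIN* UMIs, so 0 is not informative there. For *SULF1*, which edits heparan sulfate, 43 and 14 UMIs were measured in E19 HSTS and E19 HS. In E16 HS it had 0 where 4.81 were expected.

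Most cells with *SPON1* or *NTN1* had *SOX2* only. In E19 HSTS these held 109 of 146 *SPON1* and 69 of 105 *NTN1* UMIs, and in E19 HS 69 of 81 and 42 of 47. Over the 3 libraries, *SPON1* was in 54 of 68 such cells and in 5 of 47 with *EPCAM* but not *T*, *NOTO* or *CHRD*. *NTN1* was in 45 of the 68 and 8 of the 47. In E19 HSTS and E19 HS the *SOX2* only cells had *SPON1* in 78.4% and 80.0%, or 61.8% and 63.3% after thinning. *ENKUR*, which encodes a protein of motile cilia, was in 27 of the 68 cells, in none of the 47 and in 29 members in all. Its ratio to other cells was 20.3 (11.8 to 33.1) in E19 HSTS and 21.1 (13.4 to 31.9) in E19 HS, with 14 cells in each. *TMEM190* and *TPPP3*, the second of which encodes a tubulin-binding protein, were at 18.4-fold and 15.1-fold in E19 HSTS and 8.23-fold and 6.21-fold in E19 HS. *HCRT*, annotated as the hypocretin precursor, had 29 UMIs in 16 cells and 57 in 11, with ratios of 10.5 and 17.3, and 24 of its 27 cells were *SOX2* only cells.

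*FOXA2* was not specific to 1 of the sets. It was detected in 7 *SOX2* only cells, 3 *EPCAM* cells without *T*, *NOTO* or *CHRD*, 6 of the 22 cells with those genes and 1 cell with none. Its 8, 4 and 7 UMIs gave ratios of 17.7 (7.19 to 38.1), 10.1 (2.67 to 27.4) and 45.4 (17.1 to 103.0). Between 0.376% and 0.600% of other cells and 0, 0 and 1 erythroid cells had a *FOXA2* UMI.

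Within the *SHH* cells, 33 of 1680 genes were at least 2-fold higher in all 3 libraries in the cells with *SOX2* than in the rest, or 1.96%. *SOX2* itself chose the set. Its make-up was unlike between the stages, with *SOX2* only cells as 37 of 46 and 30 of 37 at E19 and 1 of 10 in E16 HS. There, 8 of the 10 also had *EPCAM*. *CKB*, the brain creatine kinase, was at 7.80-fold, 8.07-fold and 3.27-fold, *MAP1B*, a neuronal microtubule protein, at 4.08-fold, 12.8-fold and 2.85-fold, and *HOXB9* at 3.56-fold, 3.04-fold and 8.04-fold (1.75 to 74.6 in E16 HS, where the rest had few UMIs). *CDC20*, *CCNA2* and *NRM* also met the limit, and the first 2 of these act in cell division. *DLK1* had the largest ratios after *SOX2*, but its UMIs came from 2, 5 and 2 cells. *STMN2*, a gene of early neurons, was found in 25 of 37 *SOX2* only cells in E19 HSTS and 19 of 30 in E19 HS, against 23.0% and 24.2% of other cells. Thinned, it was in 47.1% and 40.0% of the *SOX2* only cells. The other neuron genes on the list were rare. Of the 68 *SOX2* only cells over the 3 libraries, 5 had *NEFM*, 1 each had *ELAVL3*, *ISL1* and *NEFL*, and 0 had *DCX*.

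Of 13 neural progenitor genes 1, 3 and 3 were at least 2-fold higher in all *SHH* cells than in other cells, of 6 neuron genes 0, 2 and 1, and of 9 ventral forebrain genes 3, 4 and 2. Of 11 tail bud genes 1, 2 and 1 were, of 11 limb mesenchyme genes 2, 1 and 1, and of 5 erythroid genes 0, 0 and 1. Beside the 12.3%, 11.7% and 10.2% of all genes with a UMI, several of these counts are near the background. Position along the body was read from 36 *HOX* genes. Of the *SOX2* only cells, 32 of 37 in E19 HSTS (86.5%, 71.2 to 95.5%) and 18 of 30 in E19 HS (exact interval 40.6 to 77.3%) had a *HOX* UMI. Other cells had a *HOX* UMI in 73.3% and 63.7%, and both values lie within these intervals. None of the 37 and 30 had a gene of groups 10 to 13, where exact upper limits were 9.49% and 11.6%. In other cells that share was 9.51% and 5.94%. At least 2 genes of the ventral forebrain list were found in 1 member of E19 HSTS and 2 of E19 HS, and these cells had no *HOX* UMI. They held 12 and 16 UMIs of *SIX6* and 5 and 3 of *NKX2-1*, factors of the hypothalamus and its floor.

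**Figure D3:**
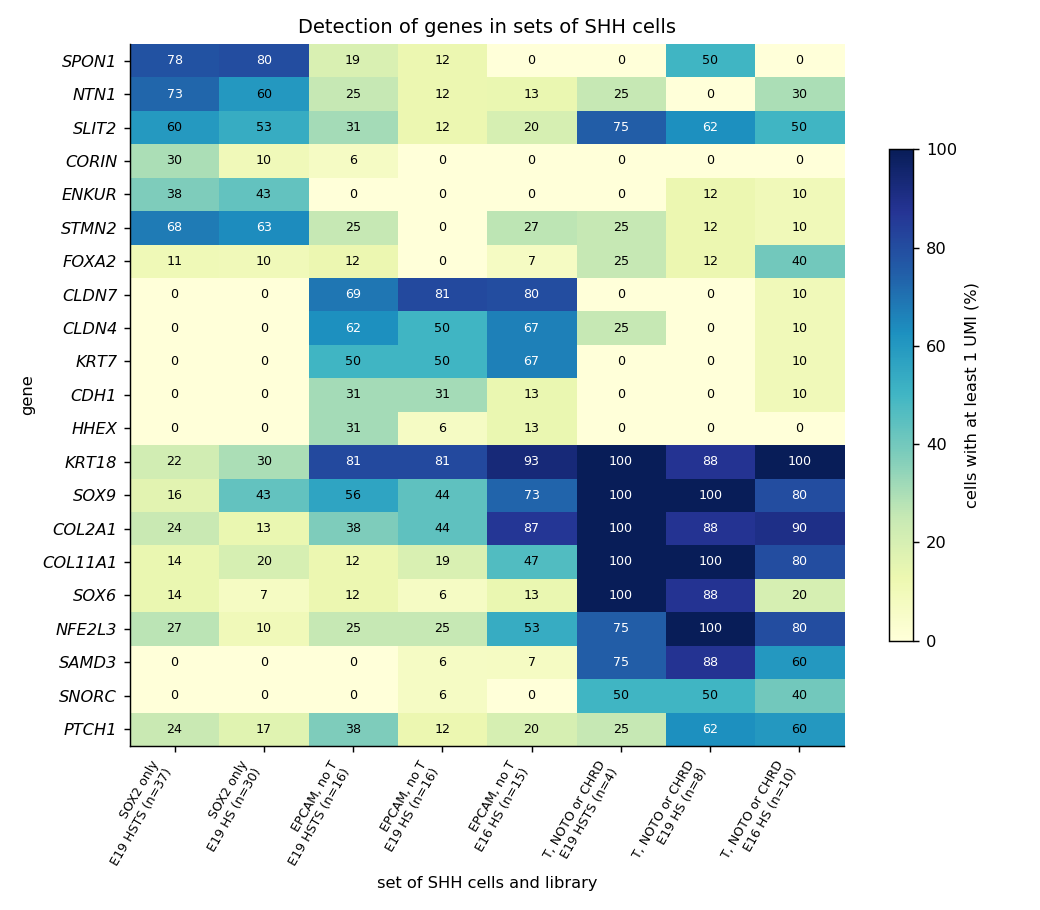
Percentage of cells with at least 1 UMI of each gene (rows) in exclusive sets of *SHH* cells by library (columns, with the number of cells), where the middle set has *EPCAM* without *T*, *NOTO* or *CHRD*. *SPON1* was found in 78.4% and 80.0% of *SOX2* only cells, *CLDN7* in none of these, and *SOX9* in all of the 4 and 8 E19 cells with *T*, *NOTO* or *CHRD*.

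Cells with both *SHH* and notochord genes were few. Of 13 genes on the notochord list, 9, 12 and 8 were at least 2-fold higher in all *SHH* cells by library than in other cells, with median ratios of 3.39, 8.70 and 3.21. Over all genes 12.3%, 11.7% and 10.2% were, with medians of 0.771, 0.595 and 0.118. All 22 of them had *T*. *NOTO*, a notochord homeobox factor, was found in 2 of the 10 in E16 HS, with 4 and 1 UMIs, and *CHRD* in 2 of the 8 in E19 HS, with 1 UMI each. *T* had 5 UMIs over 4 cells of E19 HSTS, at most 2 in a cell. In E19 HS it had 19 UMIs over 8 cells, at most 4 in a cell, and in E16 HS 21 over 10, at most 7. The cell of E16 HS with 7 *T* UMIs also had 4 of *NOTO*, 2 of *FOXA2*, 158 of *KRT18* and 27612 UMIs in all.

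Among 527 genes, 11 were at least 2-fold higher in these cells than in the other *SHH* cells of each library, or 2.09%. *SOX9* was detected in 4 of 4, 8 of 8 and 8 of 10 cells, and *COL2A1*, the collagen of cartilage and notochord sheath, in 4, 7 and 9. Their ratios to the other *SHH* cells were 6.61, 6.38 and 2.46 for *SOX9* and 8.65, 12.8 and 2.67 for *COL2A1*. *COL11A1* was at 6.62-fold, 22.5-fold and 3.10-fold. Other genes among the 8 with the largest ratios were *PHACTR2*, *TLN2*, *ASF1A* and *NFE2L3*. The collagen and *SOX9* counts were high in single cells too: 1 cell of E19 HSTS had 26 *COL2A1* and 30 *SOX9* UMIs, and it was in the highest 8% of doublet scores. Of the 22 cells, 2 of 4, 2 of 8 and 5 of 10 were in that range.

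*SAMD3* and *SNORC*, which encodes a small proteoglycan membrane protein of chondrocytes, sat mainly in the same cells. *SAMD3* was in 16 of the 22 cells with *T*, *NOTO* or *CHRD*, in 7 of the 15 with none of the defining genes, in 2 of the 47 *EPCAM* cells and in 0 of the 68 *SOX2* only cells. *SNORC* was in 10, 3, 1 and 0 of these. After thinning, *SAMD3* was in 0, 4 and 2 and *SNORC* in 1, 2 and 3 of the cells with *T*, *NOTO* or *CHRD*, and neither was in a *SOX2* only cell, so in E19 HSTS the difference in *SAMD3* was not detectable at equal depth. The 14, 38 and 8 UMIs of *SNORC* in all members gave ratios to other cells of 190.4 (71.9 to 557), 366 (197 to 716) and 492 (132 to 2235). No erythroid cell of any library had *SNORC*. *SPON1*, which the study took as its notochord marker, was in 0 of 4, 4 of 8 and 0 of 10 cells with *T*, *NOTO* or *CHRD*.

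The part of all *T*-positive cells that carried *SHH* differed widely between libraries. In E19 HSTS 4 of 5 cells with *T* under the *AHSP* limit were *SHH* cells (80.0%, 28.4 to 99.5%). In E19 HS 8 of 29 were (27.6%, 12.7 to 47.2%), and in E16 HS 10 of 159 (6.29%, 3.06 to 11.3%). They held 5 of 6, 19 of 50 and 21 of 216 *T* UMIs. Among cells without *SHH*, *T* was found in 1 of 7056, 21 of 9170 and 149 of 9305. Erythroid cells had *T* in 0, 0 and 6 cells, and the 6 in E16 HS were 0.301%, far under the 32.3% of the *SHH* cells there.

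**Figure D4:**
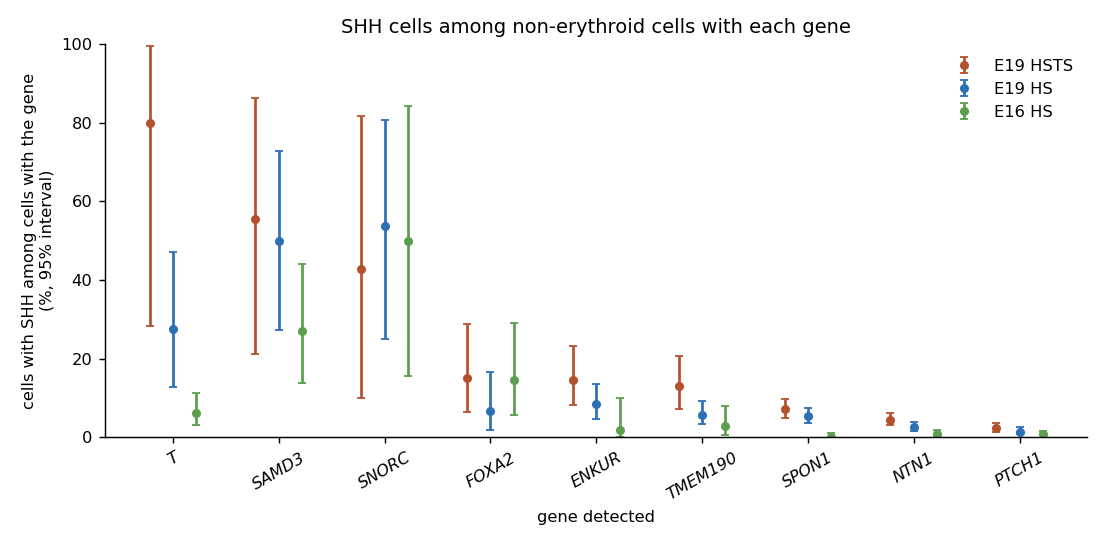
For each gene, the percentage of cells with at least 1 UMI of it, under the *AHSP* limit, that were also *SHH* cells, with exact 95% intervals and 1 colour for each library. *T* ranges from 80.0% in E19 HSTS to 6.29% in E16 HS, and *SAMD3* and *SNORC* lie between 27.0% and 55.6%.

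The *EPCAM* set carried epithelial genes in all 3 libraries. Within the *SHH* cells, 8 of 1472 genes were at least 2-fold higher in the cells with *EPCAM* in every library, or 0.543%. Besides *EPCAM*, which chose the set, they included the tight junction gene *CLDN7*. In E19 HSTS, where the rest had 0 UMIs, *CLDN7* was at 17.6-fold over the floor of 3 counts, with an exact lower bound of 13.7. It was at 31.4-fold (8.0 to 270.1) in E19 HS and 4.32-fold (1.41 to 21.6) in E16 HS. *CLDN4*, of the same family, was at 13.9-fold over the same floor (exact lower bound 10.6), and at 15.7-fold (3.69 to 141) and 3.11-fold (0.992 to 15.7). *KRT7*, a keratin of simple epithelia, was at 7.43-fold and 10.5-fold over the floor at E19, where the rest had none (exact lower bounds 5.37 and 7.56). At E16 it was at 3.07-fold (0.772 to 26.7). *WFDC2*, *BAMBI* and *AIF1L* also met the limit, and *BAMBI* encodes a decoy receptor for BMPs.

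Junction genes split the members sharply. *CLDN7* was in 36 of the 47 *EPCAM* cells without *T*, *NOTO* or *CHRD*, in 0 of 68 *SOX2* only cells and in 1 of 22 cells with those genes. *CDH1*, the epithelial cadherin, was in 12, 0 and 1 of these sets, and *HHEX*, a factor of foregut endoderm and liver, in 8, 0 and 0. Thinned, *CDH1* was left in 2, 4 and 0 and *HHEX* in 1, 0 and 1 of the *EPCAM* cells by library, too few to compare with 0. After thinning *CLDN7* was in 43.8%, 43.8% and 40.0% of the *EPCAM* cells by library and still in none of the *SOX2* only cells. Other kept cells had *CLDN7* in 9.85%, 8.39% and 14.6%, and erythroid cells in 1.52%, 1.14% and 3.36%.

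The endoderm lists differed in how far they stood above the other cells. Of 8 anterior endoderm genes 2, 1 and 2 were at least 2-fold higher, and of 9 posterior and pancreatic genes 4, 1 and 3. Of 18 gut endoderm genes, 5, 7 and 10 were at least 2-fold higher in the *SHH* cells than in other cells, with median ratios of 1.22, 1.37 and 2.94. Both lie above the 12.3%, 11.7% and 10.2% and the medians of 0.771, 0.595 and 0.118 over all genes, by most in E16 HS. Over genes with at least 10 UMIs the medians were 1.14, 1.06 and 1.02, close to the list at E19. The summed CPM of the gut endoderm list was 1307, 1237 and 8091, against 1387, 1265 and 4571 in other cells. It was thus higher in the *SHH* cells of E16 HS only. *FOXA1*, a factor of endoderm and floor plate, was in 5, 3 and 2 cells, at 28.0-fold (8.08 to 79.1), 23.1-fold (5.84 to 66.9) and 7.58-fold (0.898 to 28.5). *SOX17*, *FOXA3* and *PDX1* were at 0 in all members, where at most 0.0485 UMIs of each were expected in a library, so a count of 0 says little. *HOXA13*, a factor of the hindgut and tail, was in 3, 0 and 2 members. Of anterior endoderm genes, *NKX2-1* was found in 4 *SOX2* only cells and 2 *EPCAM* cells, and *PAX9* was at 0.

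A single *EPCAM* cell of E19 HS carried the liver and yolk sac genes. It held 458 UMIs of *AHSG*, 356 of *APOA2*, 326 of *SERPINA1* and 69 of *AFP*, all of which encode plasma proteins. No other member had more than 2 UMIs of *AHSG* or more than 3 of *APOA2*. Of the 4 surface ectoderm genes, *TP63*, *TFAP2A* and *KRT5* had no UMI in any member and *GRHL2* was in 4 members. Their summed CPM was 0, 4.61 and 5.84 against a low 10.9, 9.72 and 8.43 in other cells. The sum was thus lower in each library, but only 4 UMIs, all of *GRHL2*, lie behind it. Neural crest, somite and endothelial lists were low, with summed CPM in the *SHH* cells of 0, 0 and 0 for the 3 neural crest genes, 58.2, 0 and 20.4 for somite and 10.6, 0 and 5.84 for endothelium. In other cells these sums were 19.9, 16.0 and 12.6 for neural crest, 139.5, 102 and 73.6 for somite and 94.7, 117 and 29.7 for endothelium. Mesenchyme genes summed to 545, 129 and 651 CPM against 863, 828 and 2995, and cardiomyocyte genes to 3.53, 4.61 and 5.84 against 522, 349.8 and 43.0. No gene of the 6 endothelial, 7 mesenchyme, 6 somite, 4 cardiomyocyte, 4 myeloid and 3 neural crest genes was 2-fold higher in any library, and of 4 surface ectoderm genes 0, 1 and 1 were. In sums like these, fewer cells of a type and less RNA per cell cannot be told apart.

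The Hedgehog pathway runs from the ligand, released with the help of *DISP1*, through the receptor *PTCH1* and the transducer *SMO* to the GLI factors. *PTCH1*, *HHIP* and *GLI1* are also known targets of the pathway. Few pathway genes differed between *SHH* cells and other cells. Of 6 ligand and release genes, 1, 2 and 1 were at least 2-fold higher by library, of 7 receptor genes 1, 0 and 1, and of 5 transducers 0, 1 and 1. These counts stand beside the 12.3%, 11.7% and 10.2% of all genes with a UMI.

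*PTCH1* was found in 19, 12 and 11 members with 23, 12 and 17 UMIs. Its ratio to other cells was 2.30 (1.45 to 3.47), 1.84 (0.947 to 3.23) and 3.04 (1.77 to 4.89). It was in 12 of the 22 cells with *T*, *NOTO* or *CHRD* and in 14 of the 68 *SOX2* only cells. Thinned, these were 0 of 4, 3 of 8 and 4 of 9 against 3 of 34, 2 of 30 and 0 of 1 by library. *DISP1* had ratios of 3.31 (1.75 to 5.73), 2.25 (0.821 to 4.94) and 1.79 (0.368 to 5.28). *HHIP*, a secreted or membrane-bound Hedgehog inhibitor, had 1, 0 and 1 UMIs where 5.89, 3.22 and 3.01 were expected, and the interval of its ratio excluded 1 in E19 HSTS only, with an upper bound of 0.950. *GLI1* had 0, 0 and 3 UMIs against 1.58, 0.706 and 0.999 expected, which is too few to compare. *GLI3*, the main repressor of the pathway, had 2, 0 and 0 against 4.87, 3.14 and 2.67. *IHH* had 1 UMI, in E16 HS, and *DHH* none.

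Of 6 BMP antagonists, 2, 2 and 1 were at least 2-fold higher in the *SHH* cells than in other cells, beside 12.3%, 11.7% and 10.2% of all genes. *FST*, which encodes follistatin, was lower, with 21, 19 and 9 UMIs against 62.8, 34.2 and 37.8 expected and ratios of 0.334 (0.207 to 0.512), 0.555 (0.334 to 0.867) and 0.238 (0.109 to 0.452). *NOG*, which encodes noggin, had 1, 2 and 4 UMIs, and the ratio in E16 HS was 9.04 (2.42 to 23.8).

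Between the 2 breeds at E19, the *SHH* cells of E19 HSTS held 567128 UMIs against 434040 for E19 HS. Of 1476 genes with at least 50 UMIs in the higher library, 69 were at least 2-fold higher in E19 HSTS (4.67%) and 17 at least 2-fold lower (1.15%). With TMM scaling, which lowers every ratio by 1.11 times (0.150 on the log2 scale), the counts were 40 and 22. In the other cells of the same libraries, 8 of the 69 and 3 of the 17 passed the same limit in the same direction. When the member with the most UMIs of a gene was left out of the higher library, 39 of the 69 and 4 of the 17 were still past it.

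Single cells held the extreme values. *COL1A2* had 82 UMIs in E19 HSTS against 4 in E19 HS (15.7-fold, 5.90 to 58.9), but 60 of them came from 1 cell. *COL1A1* had 53 against 4, with 44 from 1 cell, *POSTN* 55 against 7, with 30 from 1 cell, and *COL3A1* 132 against 28, with 56 from 1 cell. In other cells these matrix genes of mesenchyme had ratios from 0.981 to 1.10. *IGFBP3*, which binds insulin-like growth factors, was spread over 16 cells with 54 UMIs against 4 cells with 9 (4.59-fold, 2.25 to 10.6). In the other cells the *IGFBP3* ratio was 0.714. At the other end, *AHSG*, *AFP*, *APOC2* and *APOA2* were low in E19 HSTS through the single plasma protein cell of E19 HS. *GAPDH*, a glycolytic enzyme, had 2 UMIs in E19 HSTS against 677 (ratio 0.00226), and its ratio in other cells was 0.00354, so it differed over the whole library.

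Floor plate genes at E19 were at similar or higher levels in E19 HSTS. *SPON1* was at 257 CPM against 187 (ratio 1.38, 1.04 to 1.83), which is 1.26 (0.923 to 1.73) in the *SOX2* only cells alone. *NTN1* was at 185 against 108 CPM (1.71, 1.20 to 2.47), and 1.31 (0.879 to 1.97) in the *SOX2* only cells. *CORIN* had 20 against 3 UMIs (5.10, 1.51 to 26.8), *SULF1* 43 against 14 (2.35, 1.26 to 4.65) and *NKX6-1*, a ventral neural homeobox factor, 13 against 1 (9.95, 1.49 to 423). In the *SOX2* only cells they were in 11, 17 and 8 of 37 cells of E19 HSTS and 3, 7 and 1 of 30 of E19 HS. Other cells had ratios of 0.967, 1.52 and 0.857 for these genes. Several of these intervals nearly reach 1, none is adjusted for the number of genes, and each group is 1 library.

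*T* was lower in E19 HSTS inside and outside the *SHH* cells. Within them it had 5 UMIs against 19, at 8.82 and 43.8 CPM (ratio 0.201, 0.0588 to 0.558). In the other cells the ratio was 0.0374. *SNORC* had 14 UMIs in 3 cells against 38 in 7 (0.282, 0.141 to 0.532). *SOX9* was close as a sum, with 95 against 74 UMIs (0.983, 0.717 to 1.35), but 30 of the 95 came from 1 cell. It was found in 23 of 63 against 30 of 58 members. Its ratio was 0.398 (0.158 to 0.934) in the *SOX2* only cells. In the *EPCAM* cells, which include that 1 cell, it was 1.67 (1.02 to 2.82). *COL2A1* summed to 107 against 102 UMIs (0.803, 0.606 to 1.06), with 26 of the 107 from 1 cell. In these libraries 4 and 8 *SHH* cells carried *T*.

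**Figure D5:**
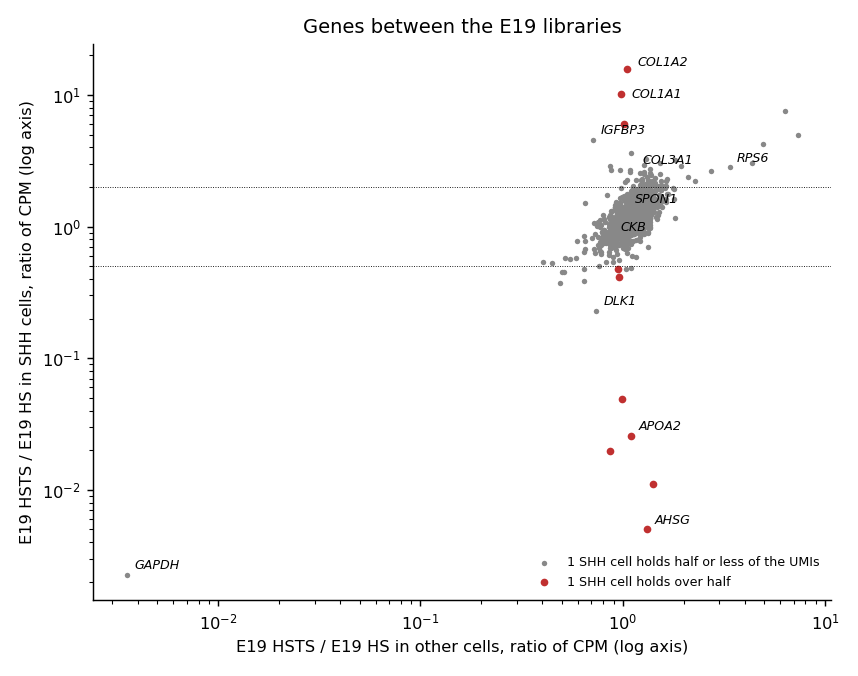
Ratio of CPM of E19 HSTS to E19 HS for genes with at least 50 UMIs in the *SHH* cells of the higher library, in other cells (horizontal, log axis) and in *SHH* cells (vertical, log axis), with dotted lines at 2-fold. Red points are genes of which 1 *SHH* cell of the higher library held most of the UMIs, such as *COL1A2* and *AHSG*, and *GAPDH* lies low on both axes.

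Between the 2 stages of HS, a comparison that shares the E19 HS library with the one between breeds, the keratins *KRT8* and *KRT18* were higher and *SPON1*, *NTN1* and *SOX2* lower at E16. Of 1090 genes with at least 50 UMIs in the higher library, 55 were at least 2-fold higher in E16 HS (5.05%) and 50 at least 2-fold lower (4.59%). Scaling by TMM lowers these ratios by 1.08 times (0.105 on the log2 scale) and gave 41 and 55. The same limit was passed in the same direction in the other cells by 16 of the 55 and 27 of the 50, so part of the difference was shared with the whole library. Without the member with the most UMIs, 31 of the 55 and 38 of the 50 were still past it.

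*KRT18* and *KRT8*, the keratins of simple epithelia, had 1663 against 209 and 237 against 24 UMIs. Their ratios were 10.1 (8.73 to 11.7) and 12.5 (8.21 to 19.9) in *SHH* cells and 3.19 and 4.11 in the other cells. *KRT18* was found in 29 of 31 members of E16 HS and 31 of 58 of E19 HS. Other epithelial genes did not all follow, since *CDH1* had 3 against 7 UMIs (0.543, 0.0907 to 2.38). Within the *EPCAM* cells *KRT18* was at 4.50-fold (3.80 to 5.35) and *KRT8* at 6.87-fold (3.99 to 12.8), while *EPCAM* was at 1.01 (0.713 to 1.45), *CLDN7* at 0.937 (0.597 to 1.49) and *KRT7* at 0.887 (0.461 to 1.76). *ERICH2*, *COL3A1* and *LAMA5*, a laminin chain of basement membranes, were at 21.6-fold, 5.98-fold and 5.16-fold, and at 2.11-fold, 2.84-fold and 2.64-fold in other cells. *CDX2*, a factor of the posterior body and gut, was in 10 members of E16 HS and 1 of E19 HS, with 18 and 1 UMIs (22.8-fold, 3.60 to 951) and a ratio of 7.41 in other cells.

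*SPON1* was the clearest of the genes lower at E16. It had 1 UMI in E16 HS against 81 in E19 HS (ratio 0.0157, 0.000391 to 0.0897), where the other cells were at 0.606. The plasma protein genes *AHSG*, *APOA2*, *SERPINA1* and *AFP* were lower through the 1 cell of E19 HS. *SOX2* had 26 against 166 UMIs (0.199, 0.126 to 0.301), *NTN1* 7 against 47 (0.189, 0.0720 to 0.420) and *CKB* 68 against 520 (0.166, 0.127 to 0.214). In other cells these ratios were 0.367, 0.690 and 0.408. *T* did not separate the stages within the *SHH* cells, at 61.3 against 43.8 CPM (1.40, 0.717 to 2.76), while in the other cells it was 4.68 times higher at E16. *SOX9* was at 2.02-fold (1.5 to 2.74), against 0.703 in the other cells.

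Seen from each stage apart, the genes that set *SHH* cells off from other cells overlapped in part. At least 2-fold higher in both E19 libraries were 109 of 3476 genes (3.14%), and 188 of 3203 (5.87%) in E16 HS. The 24 in common were 22% of the first and 12.8% of the second. Of the 109, 44 had the 10 UMIs needed for a call at E16, and of the 188, 102 had them in both E19 libraries. The E19 set was led by *SNORC*, *SAMD3*, *ENKUR* and *SPON1* and the E16 set by *SAMD3*, *DNAH5*, a dynein of motile cilia, and *T*. *DNAH5* was at 31.7-fold in E16 HS with 13 UMIs in 6 cells, and at 4.76-fold and 12.4-fold in E19 HSTS and E19 HS with 5 UMIs in each.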

How the data were processed

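Whole-embryo single-cell 3′ libraries (E19 HSTS, E19 HS, E16 HS) were analysed. The authors aligned reads to a sheep genome and deposited raw UMI counts per gene and cell from Cell Ranger, version 6.1.2, per the submitters' processing notes. The deposited tables list 26478 genes, and kept cells held 99580051, 88733467 and 113213654 UMIs. A barcode was kept if it had 200 to 6000 genes and 1000 to 30000 UMIs, of which no more than 10% were mitochondrial. Counts were summed over cells, scaled to CPM and compared as ratios with exact conditional intervals at the 95% level, and shares had exact Clopper-Pearson intervals, in Python 3.11.15 with scipy 1.17.1. A group at 0 was set to 3 counts for a ratio between libraries or between sets of members. Scrublet in scanpy 1.11.5 gave doublet scores, and edgeR 4.0.16 gave TMM factors. Fold rules, intervals and thinning were tested on simulated data. Members and the 22 gene lists were chosen with earlier results of these data known. Named genes are those of the lists and *HOX* genes, 15 higher and 5 lower than other cells, 5 in each direction for each pair of libraries and 8 for each set, by ratio. The 20 genes with the largest ratio in both E19 libraries or in E16 HS were named after their values were seen. Of the listed genes 13 were not found in the tables by symbol. The E16 HSTS cells of the study were not analysed here. Some genes that met these rules are not reported here.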

Additional observations from a re-analysis of the deposited data

Results flagged for a closer look

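Among the 1316 barcodes of E16 HS left out by the cell filter, 5 carried *SHH* with fewer than 5 *AHSP* UMIs. This is 0.380% (exact 95% interval 0.123 to 0.884%), above 0.228%, an approximate limit for a count of 0 that 3 barcodes would reach. The interval includes the 0.274% of the kept cells of E16 HS, and these barcodes enter no comparison of the text. Of the 5, 4 had more than 30000 UMIs. In E19 HSTS 3 of 1496 such barcodes (0.201%) and in E19 HS 2 of 1435 (0.139%) carried *SHH*, which is not above the limits of 0.201% and 0.209%.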

How the results depend on the processing

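No paired analysis was possible because the labels carry no replicate numbers and each group is 1 library. A stricter cell filter, and leaving out the highest doublet scores, kept each of the 12 shares within its 95% interval and each of the 6 counts within 1.5 times. Without the highest doublet scores the share with *T*, *NOTO* or *CHRD* in E19 HSTS was 3.77% and 37 genes were higher in E16 HS than E19 HS. With at least 2 *SHH* UMIs, the shares of *SHH* cells were 0.146, 0.103 and 0.0441% by library. Among those cells *T*, *NOTO* or *CHRD* was in 0, 27.3 and 80.0%, *SOX2* in 45.5% in E19 HS and 0% in E16 HS, and *EPCAM* in 100.0% in E16 HS. There, 12 genes were higher and 5 lower than other cells in all libraries, 6 were lower in E19 HSTS than E19 HS, and 14 were higher and 21 lower in E16 HS than E19 HS. Choosing the members after thinning to 3000 UMIs gave shares of 0.352, 0.345 and 0.110%, *EPCAM* in 10.0% (E19 HSTS) and 45.5% (E16 HS), *T*, *NOTO* or *CHRD* in 0% (E19 HSTS), and *SOX2* in 50% (E19 HS) and 9.09% (E16 HS). It left 2 higher and 14 lower genes, 7 and 6 between the breeds, and 16 and 16 between the stages.

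The number of called genes depended on the UMI limit. At 30 UMIs 10 were higher and 10 lower than other cells, and with no limit 214 and 130. Between the breeds no limit gave 1390 and 661 and 100 UMIs gave 23 and 10. Between the stages these were 1224 and 946, and 25 and 31. TMM scaling gave 40 higher in E19 HSTS, and other cells with *SOX2* or *EPCAM* as the reference gave 10 lower genes. Chosen after seeing the data, leaving out the top cell of each gene gave 13 higher and 42 lower genes, and 9 lower in E19 HSTS. Also chosen so, leaving out E19 HSTS gave 45 and 42, E19 HS 42 and 40, and E16 HS 109 and 61. Depth limits the counts, since most members carry 1 *SHH* UMI and cells with *SHH* RNA but no captured UMI are among the other cells.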
